A study of Mus musculus with 2 samples.

Results

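Proliferating acinar cells are cells of the exocrine pancreas that hold digestive enzyme transcripts and transcripts of dividing cells at once. The cells were chosen by their measured transcripts: a cell barcode was taken as one when it had at least 500 detected genes, at most 10% mitochondrial transcripts, at least 2% of its transcripts from 5 enzyme genes (Ctrb1, Clps, Cpa1, Cela1 and Reg1), under 1% from 4 hormone genes (Ins1, Ins2, Gcg and Sst), and at least 3 transcripts of 5 cycle genes (Top2a, Mki67, Cenpf, Birc5 and Ube2c). Transcripts are counted as UMIs, the molecular tags that mark each captured RNA molecule once. The rule found 140 cells among 8765 barcodes: 19 from control and 121 from knockout. They were part of 910 acinar cells by the same enzyme and hormone limits, 111 in control and 799 in knockout, which leaves 92 and 678 other acinar cells with fewer than 3 cycle UMIs. The study asked how loss of Dpy30, a core subunit of the TrxG (COMPASS) histone methyltransferase complexes, affects the mouse pancreas. It sequenced the pancreas of 1 control embryo and of 1 embryo labelled knockout and named Dpy30∆P, both of strain C57BL/6 and taken at embryonic day 18.5. Which promoter drives the deletion, and in which tissues, is not stated in the labels. Both pancreata were digested for 20 minutes, and the cells were then taken up in 500 uL for control and 250 uL for knockout, which cannot be told apart from genotype. With 1 library per group no difference below has a replicate check, so no p-value is given, and all 95% intervals cover counting error only.

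Acinar cells arise from progenitors at the tips of the branching pancreatic epithelium and, before birth, fill with zymogens, the inactive forms of proteases, lipases and amylase. The PTF1 complex, in which Ptf1a pairs with Rbpjl, binds enzyme gene promoters and drives this program. Fetal acinar cells can divide after they have begun to make enzymes, and the cycle genes of the rule act late in the cycle: topoisomerase Top2a untangles sister chromosomes, Birc5 belongs to the complex that corrects spindle attachment, and Ube2c feeds mitotic cyclins to the proteasome.

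The 2 libraries held 25398522 and 33048640 UMIs, and 2633 and 3257 barcodes passed the limits on genes and mitochondrial UMIs. No acinar barcode sequence was shared between the libraries, although 12 of the barcodes that passed were. The libraries differed in sex as well as genotype, and the pair cannot be told apart: Xist, the RNA of the inactive X chromosome, had 0 UMIs in control and 1277 in knockout proliferating acinar cells, and Y-linked Ddx3y had 6 and 0. Dpy30 itself was not lower under the knockout label: these cells held 38 UMIs in control, 148 CPM (UMIs per 1000000 UMIs of the cells), and 428 in knockout, 225 CPM. A library of 3' tags counts neither which exons a transcript holds nor which part of the gene was deleted, so these tags check neither the deletion nor the labels.

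Other markers fitted the acinar name. Ptf1a was seen in 10 of 19 control and 103 of 121 knockout proliferating acinar cells, and in 1 of 150 and 11 of 164 dividing ductal cells (cells chosen by Spp1, epithelial genes and at least 3 cycle UMIs, but under the enzyme limit). Rbpjl was seen in 18 of 19 and 116 of 121, against 5 of 150 and 22 of 164. Median depths of the 4 sets were close, at 12266 and 14651 UMIs for the acinar and 13280 and 14626.5 UMIs for the ductal cells. Of 8 ductal markers 7 were detected in each library, with 2478 and 1258 CPM in total, against 13401 and 8412 CPM in dividing ductal cells. Clu, a secreted chaperone, was in 19 of 19 and 117 of 121 cells at 1174 and 767 CPM, against 4144 and 2660 CPM. Spp1, a secreted phosphoprotein of duct cells, stood at 987 and 262 CPM, under the 8033 and 4810 CPM of dividing ductal cells, which were chosen by it, and Cftr, the chloride channel of duct cells, at 0 UMIs in both libraries. Sox9, a factor of progenitors and ducts, stood at 156 and 116 CPM against 624 and 554 CPM. The Spp1 tags sat in few cells: 2 of 19 and 12 of 121 cells held at least 10 of them, and the control cells with most held 142 and 94 of the 253 control UMIs.

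Markers of further cell types were measured in the same cells. Of 6 mesenchymal markers, all 6 were detected in each library, with 336 and 374 CPM in total and at least 3 UMIs in 1 of 19 and 17 of 121 cells, and 2 knockout cells also passed a collagen limit for mesenchymal cells. Of 6 macrophage markers, 1 was detected in control and all 6 in knockout cells, with 46.8 and 122 CPM. C1qa, a complement subunit, gave 12 of the 12 and 170 of the 232 UMIs, in 6 and 73 cells, against 1 of 534 and 8 of 652 mesenchymal cells. The partner gene C1qb was at 0 UMIs in control and seen in 3 knockout cells. Red cell markers summed to 753 CPM in control and 5732 CPM in knockout, with at least 3 UMIs in 18 of 19 and 120 of 121 cells. The medians were 10 and 15 UMIs per cell; 1 knockout cell held 4683 of the 10915 knockout UMIs, and without it the knockout level was 3294 CPM. Endothelial markers were near 0, at 19.5 and 29.9 CPM. Insulin transcripts also differed by library, Ins2 at 648 and 78.3 CPM, and hormone and enzyme RNA was found in mesenchymal cells, which should hold none: their 8 endocrine markers stood at 579 and 107 CPM and their 12 acinar markers at 476 and 1589 CPM. The 5 enzymes made a median of 0.0351% and 0.0822% of the UMIs of mesenchymal cells. Of these cells, 0 of 534 (interval up to 0.688%) and 11 of 652 (1.69%) reached the 2% limit. The part that other cells' RNA has in the results below was not tested beyond these values.

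The share of acinar cells that were proliferating was 17.1% in control (19 of 111, Clopper-Pearson interval 10.6% to 25.4%) and 15.1% in knockout (121 of 799, 12.7% to 17.8%), a ratio of 0.885 (Katz interval 0.569 to 1.38). The interval holds 1 and does not show that the shares are alike. Over all barcodes that passed, the knockout share was higher, 3.72% against 0.722%, a ratio of 5.15 (3.18 to 8.33), because the knockout library held 799 acinar cells and the control library 111. Depth enters this rule, since a cell with more UMIs reaches 3 cycle UMIs more easily: proliferating cells had medians of 12266 and 14651 UMIs, and other acinar cells 5782 and 8634. When every acinar cell was thinned to 3000 UMIs, which left out 15 of 111 and 129 of 799 shallower cells, 26.0% of control and 22.1% of knockout cells held at least 1 cycle UMI (ratio 0.848, 0.588 to 1.22). The rule of 3 UMIs was met after thinning by 6.25% and 7.46%, and by 17.7% and 17.6% of the same cells unthinned.

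Exactly 3 cycle UMIs, the least the rule admits, were held by 1 control and 26 knockout cells, exactly 2 by 8 and 36 cells, and none by 70 and 520. Enzymes between 2% and 3% of UMIs were found in 2 and 19 of the proliferating cells, and over 5% in 12 and 67, while 3 and 19 cells with at least 3 cycle UMIs lay just outside, at 1% to 2%. The highest cycle counts were 96, 22 and 17 UMIs in control and 63, 61 and 59 in knockout. The control cell with 96 had 33850 UMIs and gave 37.8% of all cycle UMIs of its group and 34.3% of the G2 and M phase UMIs.

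**Figure D1:**
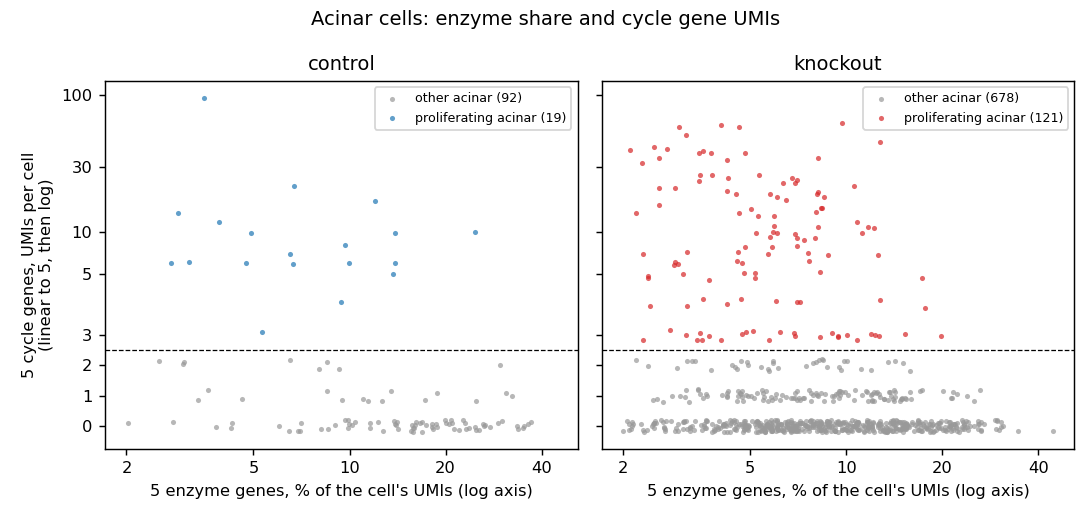
Each point is 1 acinar cell, control on the left and knockout on the right; the x axis is the share of UMIs from the 5 enzyme genes (log axis) and the y axis the UMIs of the 5 cycle genes (linear to 5, then log), with a dashed line between 2 and 3; points are spread a little in height so that equal counts can be seen. Coloured points are the 19 and 121 proliferating cells; they reach 96 cycle UMIs in control and 63 in knockout.

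The knockout acinar cells made enzymes in more than 1 mixture, and dividing cells were unevenly spread over it. The mixture was measured as the part that Ctrl, Pla2g1b and Prss3 (a chymotrypsin-like protease, a phospholipase A2 and a trypsinogen) made of their own UMIs plus those of Cela2a, Cela3b, Pnliprp1 and Cpb1 (2 elastases, a lipase-related protein and a carboxypeptidase). None of these 7 genes is in the rule. All 19 control cells lay under 10%, with a median of 0.213% and a highest value of 8.76%. Of the 121 knockout cells, 75 lay under 10%, 35 between 10% and 50% and 11 over 50%, with a median of 2.34% and a highest value of 77.1%. The other knockout acinar cells were spread further, with 270, 265 and 143 cells in the same ranges and a median of 23.2%. Knockout dividing cells therefore lay partly inside and partly beyond the range of every control dividing cell.

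Read the other way, the proliferating share of knockout acinar cells was lower where the mixture was higher. It was 21.7% of cells under 10% (75 of 345, 17.5% to 26.5%), 11.7% from 10% to 50% (35 of 300, 8.26% to 15.9%) and 7.14% over 50% (11 of 154, 3.62% to 12.4%). The share under 10% was 1.86 times that of the middle range (1.29 to 2.70) and 3.04 times that of the highest range (1.66 to 5.57). Depth ran against this order, with median depths of 8128, 10187.5 and 14056 UMIs. Thinned to 3000 UMIs, the shares with at least 1 cycle UMI were 30.9%, 18.9% and 9.03%, and the ratio of the first to the last was 3.42 (1.98 to 5.90). Control cells under 10% had a share of 17.9% (19 of 106, 11.2% to 26.6%), so within that range the knockout to control ratio was 1.21 (0.770 to 1.91).

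**Figure D2:**
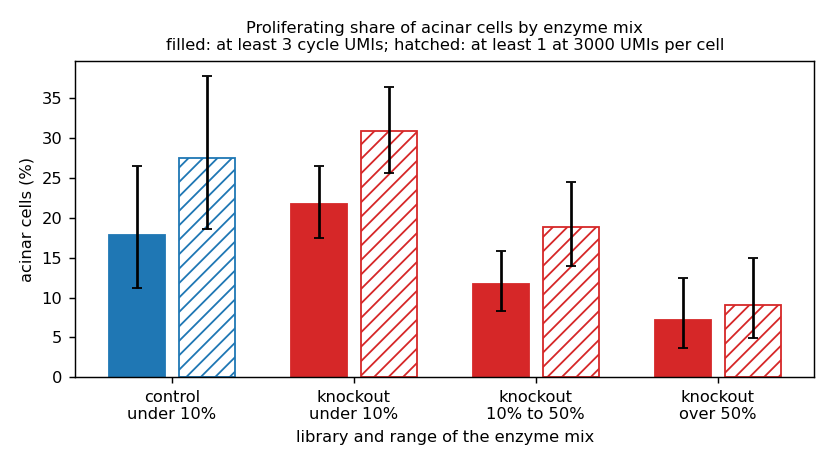
Bars give the share of acinar cells in each library and range of the enzyme mixture, with 95% Clopper-Pearson intervals as error bars; filled bars count cells with at least 3 cycle UMIs and hatched bars cells with at least 1 after thinning to 3000 UMIs. No control bars are drawn above 10%, where control had 5 acinar cells. In the knockout library filled bars go down from 21.7% to 7.14% and hatched bars from 30.9% to 9.03%.

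Cycle phase was read from 2 gene lists, 40 genes of S phase, when DNA is copied, and 59 genes of G2 and M phase outside the rule. Because the rule asks for late cycle genes, it favours cells after S phase by design. S phase genes summed to 1822 CPM in control (467 UMIs, 1661 to 1995) and 1403 CPM in knockout (2671 UMIs, 1350 to 1457). The per-cell levels overlapped widely, from 292 to 3744 CPM with a median of 1861 CPM in control and from 0 to 7423 CPM with a median of 1029 CPM in knockout, where 28 of 121 cells exceeded the control median. G2 and M genes summed to 6020 CPM (5724 to 6328) and 5431 CPM (5327 to 5537), with per-cell medians of 5463 and 4845 CPM. Without the control cell that had most cycle UMIs the control level was 4558 CPM, below the knockout, so the order of the sums rested on 1 cell.

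The number of G2 and M UMIs for each S phase UMI was 3.30 in control (2.98 to 3.67) and 3.87 in knockout (3.71 to 4.04). Without the control cell that had most cycle UMIs the control value was 2.41, so 1 cell set much of it. Other acinar cells had 1.76 and 1.87. Dividing ductal cells had 5.40 and 3.78, so the order of the libraries was opposite in that cell type. More S than G2 and M UMIs were found in 0 of 19 control cells (interval up to 17.6%) and 4 of 121 knockout cells (3.31%). Dividing ductal cells with more S than G2 and M UMIs numbered 9 of 150 and 13 of 164. At least 1 S phase UMI was found in all 19 control cells and in 118 of 121 knockout cells.

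**Figure D3:**
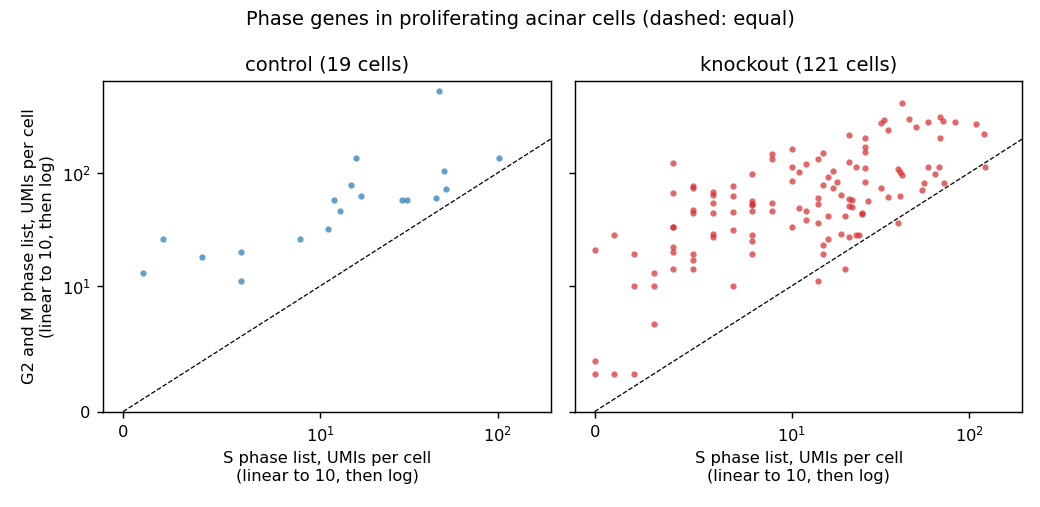
Each point is 1 proliferating acinar cell; the x axis gives UMIs of the S phase list and the y axis UMIs of the G2 and M phase list (both linear to 10, then log), and the dashed line marks equal counts. All 19 control cells lie above the line, and 4 of 121 knockout cells lie below it.

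Set beside the other acinar cells of the same library, proliferating cells had more transcripts of the cycle and of the growth machinery and smaller shares of enzyme transcripts. These values describe the rule, which cut the cells by cycle genes, and they support nothing further. Of 973 genes with at least 100 UMIs over the pair of cell sets in each library, 25 (2.57%) were at least 2-fold higher in both libraries and 12 (1.23%) at least 2-fold lower. Centred on the median of all tested genes, the counts were 19 and 20, and scaled to UMIs without enzyme genes they were 20 and 18, so the balance of the directions follows the scaling. The median log2 ratio of all genes was 0.30 in control and 0.22 in knockout.

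The chromatin protein Hmgb2, which bends DNA and is high in dividing cells, stood at 69.5 CPM in other and 1046 CPM in proliferating control cells, 15.0-fold higher (11.2 to 20.5). In the knockout library it stood at 52.2 and 829 CPM, 15.9-fold higher (14.2 to 17.9). Tubulins, the units of the spindle, followed: Tuba1b was 5.54-fold (4.24 to 7.28) and 5.86-fold higher (5.26 to 6.53). Stmn1, which takes microtubules apart, was 5.77-fold and 4.53-fold higher, and the histone variant H2afz 4.44-fold and 4.01-fold. Tubb4b, Tubb5, Hmgb1, Cks1b (a partner of cyclin-dependent kinases), Hmgn2, Ranbp1, Nucks1 and Ptma were between 2.40-fold (Ptma in control) and 5.42-fold (Tubb4b in control) higher in the libraries. Proliferating cells were also the deeper ones. Against other acinar cells of at least 8000 UMIs only, 23 and 9 genes passed in place of 25 and 12.

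Whole lists were counted over genes with at least 20 UMIs in each library, of which 57.6% of 3938 genes were higher in both libraries and 13.4% lower in both. All 17 S phase genes, all 23 G2 and M genes, all 11 histone genes, all 14 high mobility group and chaperone genes and all 23 ribosome biogenesis genes that passed were higher in both. Ncl, the nucleolar protein nucleolin, was 1.95-fold (1.65 to 2.31) and 2.06-fold (1.93 to 2.20) higher. Of 8 Polycomb subunits 7 were higher and none lower in both, with Ezh2, the methyltransferase that places the repressive mark, 3.86-fold (1.90 to 7.96) and 3.02-fold higher (2.33 to 3.92). Dpy30 was 1.72-fold (1.13 to 2.60) and 1.57-fold higher (1.40 to 1.76), 1 of 5 COMPASS and TrxG genes of 7 that were higher in both. Cell cycle inhibitors were split, with 1 of 4 higher and 2 lower.

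Enzyme genes lay the other way by share, and less far apart when counted by cell. Of 27 enzyme and secreted genes outside the rule, 25 were lower in both libraries and none higher. The trypsinogen Try5 was 0.285 times the other cells' level in control (0.258 to 0.315) and 0.357 times in knockout (0.349 to 0.366), and Spink1, the inhibitor that guards against early trypsin activity, 0.288 and 0.506 times. Sycn, a protein of the zymogen granule membrane, and Zg16, a granule lectin, were 0.327 and 0.276 times in control and 0.496 and 0.407 times in knockout. The list summed to 81618 CPM in other and 42641 CPM in proliferating control cells, and to 70209 and 41183 CPM in knockout cells. Counted per cell it was 702 and 575 UMIs in control and 721 and 648 in knockout, because proliferating cells held more UMIs in all. Against other acinar cells of at least 8000 UMIs, the list's median log2 ratio was -1.04 in control and -0.94 in knockout. The medians of all genes there were 0.24 and 0.22. The factors that drive the enzymes showed no common direction: of 11 acinar transcription factors 2 were higher and 3 lower in both libraries, and Ptf1a was 1.03 times (0.711 to 1.46) and 0.794 times (0.706 to 0.892) the level of other acinar cells.

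Promoters of both programs are shown because the cells use both at once. The sequences are 250 bases before the gene start, 5′ to 3′ on the gene's strand, from RefSeq on build GRCm38.p6. Bases just after the start were looked for in GENCODE transcripts of the same gene. They were found for Top2a, Ube2c, Tubb4b and Cela2a and not for Hmgb2, Prss2 and Hmgcs1, whose starts are therefore less sure. Capitals mark matches on either strand to CCAAT (the box bound by NF-Y) and TTTGAA (the cell cycle homology region) in 4 cycle genes. In 2 enzyme genes they mark letter matches to the 2 boxes of the PTF1 site, its E-box CACCTG and its second box TTTCCCA. These were searched for separately, so a pair of matches is not shown to form a PTF1 site. They begin 169 and 111 bases before the start in Prss2 and 218 and 85 bases before it in Cela2a. In Hmgcs1 capitals mark the motif TCACNCCAC, a sterol regulatory element. A match on the opposite strand reads ATTGG for the NF-Y box, TTCAAA for the homology region, and CAGGTG or, for the other box, TGGGAAA for the PTF1 site. In Ube2c a pair of NF-Y boxes on opposite strands overlap. Hmgb2 (chr8:57511593-57511842, plus strand) held 4 CCAAT and 2 TTTGAA matches. Top2a (chr11:99024190-99024439, minus strand) held 6 and 2. Ube2c (chr2:164769679-164769928, plus strand) held 6 and 1. Tubb4b (chr2:25224703-25224952, minus strand) held 5 and 1. The enzymes were Prss2 (chr6:41521526-41521775, plus strand) and Cela2a (chr4:141826006-141826255, minus strand), each with 1 match to either box. Hmgcs1 (chr13:119690101-119690350, plus strand), the synthase that opens the sterol pathway, held 1 sterol element and 3 CCAAT matches, which are left in lower case.
Hmgb2: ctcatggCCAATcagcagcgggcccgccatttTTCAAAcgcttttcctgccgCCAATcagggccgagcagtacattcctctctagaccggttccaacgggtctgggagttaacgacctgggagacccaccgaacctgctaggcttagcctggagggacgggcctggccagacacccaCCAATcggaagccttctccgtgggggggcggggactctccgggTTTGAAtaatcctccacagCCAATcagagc
Top2a: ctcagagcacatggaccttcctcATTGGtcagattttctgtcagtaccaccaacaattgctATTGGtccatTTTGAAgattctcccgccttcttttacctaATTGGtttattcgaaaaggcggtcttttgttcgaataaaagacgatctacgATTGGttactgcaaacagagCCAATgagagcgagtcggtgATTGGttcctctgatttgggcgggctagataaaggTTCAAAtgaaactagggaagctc
Ube2c: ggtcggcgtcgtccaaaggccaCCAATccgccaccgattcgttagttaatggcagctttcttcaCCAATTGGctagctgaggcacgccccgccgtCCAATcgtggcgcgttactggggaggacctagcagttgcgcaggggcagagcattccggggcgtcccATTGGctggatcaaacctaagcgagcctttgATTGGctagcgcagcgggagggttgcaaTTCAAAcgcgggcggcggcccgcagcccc
Tubb4b: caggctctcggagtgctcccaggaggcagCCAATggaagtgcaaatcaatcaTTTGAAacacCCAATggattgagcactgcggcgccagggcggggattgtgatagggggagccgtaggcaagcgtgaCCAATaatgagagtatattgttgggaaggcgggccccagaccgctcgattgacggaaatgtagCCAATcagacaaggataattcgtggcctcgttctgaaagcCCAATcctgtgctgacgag
Prss2: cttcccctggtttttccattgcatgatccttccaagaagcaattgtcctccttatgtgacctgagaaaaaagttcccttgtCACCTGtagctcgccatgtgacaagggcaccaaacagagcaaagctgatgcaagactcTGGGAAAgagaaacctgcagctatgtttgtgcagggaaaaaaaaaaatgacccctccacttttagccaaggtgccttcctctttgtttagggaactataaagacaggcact
Cela2a: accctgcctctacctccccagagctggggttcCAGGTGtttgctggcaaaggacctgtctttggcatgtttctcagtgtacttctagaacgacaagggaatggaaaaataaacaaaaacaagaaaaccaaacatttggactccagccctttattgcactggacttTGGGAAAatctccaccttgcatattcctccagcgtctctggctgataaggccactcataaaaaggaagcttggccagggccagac
Hmgcs1: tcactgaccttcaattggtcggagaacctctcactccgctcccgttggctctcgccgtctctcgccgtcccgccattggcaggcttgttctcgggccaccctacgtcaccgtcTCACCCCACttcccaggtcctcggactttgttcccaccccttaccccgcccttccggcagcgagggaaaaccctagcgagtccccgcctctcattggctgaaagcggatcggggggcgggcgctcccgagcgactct

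Over all 32536 promoters of that table, 33.8% held CCAAT, 15.8% TTTGAA and 5.52% both. Of the 64 G2 and M genes, rule genes included, 56 had a promoter there: 43 of them (76.8%) held CCAAT, 20 (35.7%) TTTGAA and 19 (33.9%) both. S phase promoters held CCAAT in 20 of 32 (62.5%) and TTTGAA in 4 (12.5%). Enzyme promoters held CCAAT in 8 of 33 (24.2%), below the share of all promoters. They held TTTGAA in 8 of 33 (24.2%), above the share of all promoters, and both in 2 (6.06%). CACCTG was in 17.3% of all promoters and in 20 of 33 enzyme promoters (60.6%), and TTTCCCA in 6.80% and in 9 of 33 (27.3%), while CACCTG was in 2 of the 56 G2 and M promoters (3.57%). In the sterol list CCAAT was in 12 of 16 promoters (75%) and TCACNCCAC in 1, against 1.04% of all. A match describes letters and not binding.

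Between libraries, enzyme and secreted genes of proliferating acinar cells differed in both directions. Of 2274 genes with at least 100 UMIs over both libraries, 113 (4.97%) were at least 2-fold higher in knockout and 25 (1.1%) at least 2-fold lower. The split leans on the filter, since the knockout cells supplied most UMIs and a gene low in knockout passes less easily: with a mean of the 2 CPM values of at least 50 instead, 63 were higher and 37 lower. It leans also on the enzyme mixture. Against the 75 knockout cells under 10%, the range of all control cells, 23 were higher and 17 lower of 1465 genes.

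Ctrc, chymotrypsin C, which helps to activate and degrade trypsins, was at 0 UMIs in control and at 555 UMIs (291 CPM, 76 of 121 cells) in knockout cells, at least 24.9-fold higher when the control is set to 3 UMIs over the group. The knockout mesenchymal cells held it at 6.20 CPM. Cela3a, an elastase, was at 0 and 213 UMIs, at least 9.56-fold higher. Reg3b, an antimicrobial lectin, was at 0 and 108 UMIs, in 17 knockout cells, at least 4.85-fold higher. A single knockout cell held 63 of the 108, and without it the bound was 2.05; 1 of the 108 lay in knockout cells under 10%. The phospholipase Pla2g1b, which is part of the mixture measure, was at 3 and 272 UMIs (12.2, 4.13 to 59.5), and the neuropeptide galanin, Gal, at 1 and 171 UMIs (23.0, 4.08 to 914). Under 10% these ratios were 1.56 (0.461 to 8.18) and 3.03 (0.456 to 129). Without the control cell with most of its UMIs, Pla2g1b was at 32.4 times (5.77 to 1285), and Gal had no control UMI left.

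Among genes with more control UMIs, Try4 stood at 507 and 1610 CPM, 3.17-fold higher (2.66 to 3.81), and Try10 at 714 and 1803 CPM, 2.53-fold higher (2.18 to 2.95). Both are trypsinogens. Cela1, an elastase, stood at 1319 and 5649 CPM (4.28, 3.84 to 4.79) and Reg1, a lectin of acinar cells, at 698 and 3083 CPM (4.41, 3.8 to 5.15); these 2 are rule genes and so helped to admit cells. Reg1 was at a median of 1 UMI in control cells, with 74 of 179 UMIs in a single cell, without which the ratio was 6.94 (5.72 to 8.50). In the knockout cells under 10% the order for Reg1 turned, to a ratio of 0.438 (0.364 to 0.528), and for the trypsinogen Prss3, which the mixture measure holds, it went from 2.08 (1.78 to 2.45) to 0.482 (0.400 to 0.583). Prss3 had 82 of 168 control UMIs in 1 cell, without which its ratio over all knockout cells was 3.74 (3.02 to 4.69). In that range Cela1 was at 1.61 times the control (1.44 to 1.81), Try4 at 1.26 (1.04 to 1.53) and Try10 at 1.44 (1.23 to 1.70), while Ctrc was still at least 15.5-fold higher. Reg3d, Klk1b4 and Rbp2, a retinol-binding protein, rested on 1 to 4 control UMIs, with ratios of 16.4 (2.89 to 654), 15.7 (2.77 to 627) and 6.29 (2.42 to 23.3), and under 10% with ratios of 1.87 (0.250 to 82.8), 2.80 (0.414 to 120) and 2.04 (0.730 to 7.91). Without the control cell with most of its UMIs, Rbp2 was at 11.1 times (3.04 to 92.7), and Reg3d and Klk1b4 had no control UMI left.

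Lower in knockout were the colipase Clps, at 23858 and 12259 CPM (0.514, 0.50 to 0.529), the trypsinogen Prss2, at 3613 and 1893 CPM (0.524, 0.487 to 0.564), the carboxypeptidase Cpa1, at 5856 and 3275 CPM (0.559, 0.528 to 0.592), and Pnliprp1, at 18135 and 11659 CPM (0.643, 0.623 to 0.664). In the knockout cells under 10%, Clps was at 0.786 times the control, Cpa1 at 0.784, Prss2 at 0.658 and Pnliprp1 at 1.01 times (0.982 to 1.05). Clps and Cpa1 are rule genes. Pnliprp1 is part of the mixture measure, so choosing cells under 10% favours it by design. Atp1b1, a sodium pump subunit, was at 0.301 times the control (0.220 to 0.415), but 26 of its 60 control UMIs came from 1 cell, without which it was at 0.470 times (0.320 to 0.706), and Wfdc2, a secreted inhibitor, was at 0.342 times (0.229 to 0.522). Ccnd1, cyclin D1 of G1 phase, was at 0.437 times (0.305 to 0.640), and 22 of its 40 control UMIs came from 1 cell, without which it was at 0.861 times (0.524 to 1.5). Kctd14 and Rsrp1 were at 0.482 and 0.459 times, and in the knockout cells under 10% at 0.433 and 0.401 times. Ductal Spp1 was at 0.265 times (0.227 to 0.309), with 2 control cells holding most of its control UMIs, and at 0.550 times (0.447 to 0.682) without the first of them.

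As a whole, the 35 measured enzyme and secreted genes outside the rule had 24 higher and 11 lower in knockout, and a median log2 ratio of 0.52, against 0.07 for all 7024 genes with at least 20 UMIs. Of all those genes 55.4% were higher and 44.6% lower, 13.6% at least 2-fold higher and 5.41% at least 2-fold lower, and of the enzyme list 14 and 1. The list's sum was nearly equal, at 42641 and 41183 CPM (0.966, 0.947 to 0.985), so single genes differed in both directions around a like total. Under 10% the list's median was 0.06, with 3 genes at least 2-fold higher and 4 lower of 29. The list holds genes of the mixture measure, such as Pnliprp1 and Cela3b, so these values partly follow from the choice of cells. Acinar transcription factors had 10 of 12 higher and a median of 0.30, with none at least 2-fold apart. Ptf1a stood at 168 and 185.4 CPM (1.11, 0.804 to 1.55), Rbpjl at 449 and 464 CPM (1.03, 0.851 to 1.27), Xbp1, the factor of the secretory pathway, at 218 and 301 CPM (1.38, 1.05 to 1.85), and Bhlha15 (Mist1), which organises granules, at 66.3 and 107 CPM (1.61, 0.979 to 2.81). The ER secretory list had a median of 0.07, the same as all genes.

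**Figure D4:**
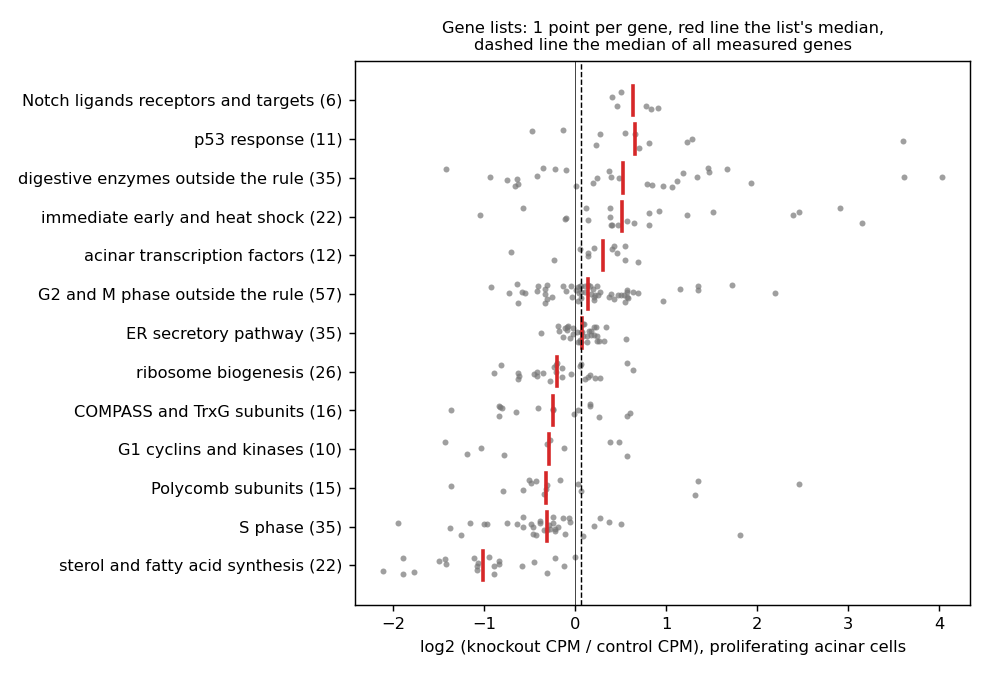
Each grey point is 1 gene with at least 20 UMIs, and the x axis is the log2 ratio of knockout to control CPM in proliferating acinar cells; genes without UMIs on one side are not drawn. Red lines are list medians, from -1.01 for sterol and fatty acid synthesis to 0.66 for the p53 response, the dashed line is the median of all genes, 0.07, and numbers in parentheses count measured genes.

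The list that lay furthest from the rest was sterol and fatty acid synthesis: all 22 measured genes were lower in knockout, 11 of them at least 2-fold, and the median log2 ratio was -1.01. These enzymes build cholesterol and fatty acids for new membrane and are switched on together by SREBP factors when sterols are low. Msmo1, a sterol demethylase, stood at 109 CPM in control and 25.2 CPM in knockout (0.231, 0.142 to 0.382), but 16 of its 28 control UMIs came from the cell with most cycle UMIs, without which it was at 0.467 times (0.245 to 0.967). Idi1, which isomerises isoprenoid units, stood at 113 and 39.9 CPM (0.353, 0.227 to 0.561), and Fdft1, squalene synthase, at 152 and 78.8 CPM (0.518, 0.362 to 0.757). Scd2, a fatty acid desaturase, was the most abundant, at 858 and 481 CPM (0.560, 0.483 to 0.652). The factor gene Srebf1 was at 19.5 and 19.4 CPM (0.996, 0.391 to 3.25), and at 1.08 times without the control cell with most cycle UMIs.

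The list summed to 2969 CPM in control (761 UMIs) and 1658 CPM in knockout (3157 UMIs), a ratio of 0.558 (0.516 to 0.605). By cell it ran from 1432 through a median of 2883 to 6494 CPM in control and from 122 through 1605 to 6386 CPM in knockout. The ranges overlapped, and 24 of 121 knockout cells exceeded the control median. Within the knockout library the level went with the enzyme mixture: the 75 cells under 10% had a median of 2191 CPM and the 46 cells above it 813 CPM, of which 1 exceeded the control median. Under 10% the list's median log2 ratio was -0.85 with 19 of 21 genes lower. With all 121 knockout cells, but without the control cell with most cycle UMIs, the list's median was -0.75.

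The difference was not limited to dividing acinar cells. Other acinar cells stood at 2965 and 1120 CPM (0.378, 0.361 to 0.396), with 21 of 23 genes lower and a median of -1.28 against 0.16 for all genes. Mesenchymal cells, which share neither the enzymes nor the lineage, stood at 1784 and 887 CPM (0.497, 0.477 to 0.519), with 24 of 24 genes lower, 17 of them at least 2-fold, and a median of -1.13 against 0.01. All 3 comparisons use the same pair of libraries. Within the control library the list was level between proliferating and other acinar cells (1.00, 0.921 to 1.09). Within the knockout library its sum was higher in proliferating cells (1.48, 1.42 to 1.54). The list's median log2 ratio there was 0.62 against 0.22 for all genes. With a mixture under 10% on both sides it was 0.31 against 0.33, level with all genes.

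**Figure D5:**
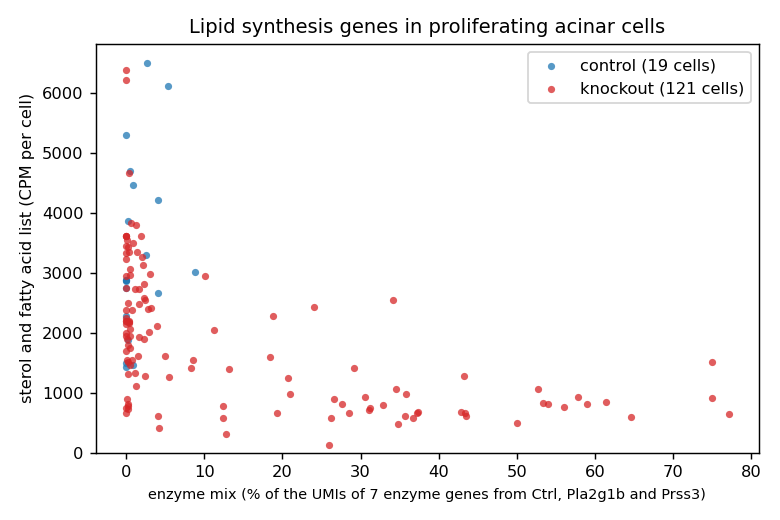
Each point is 1 proliferating acinar cell; the x axis is the enzyme mixture in percent and the y axis the summed CPM of the sterol and fatty acid list. The 19 control cells lie under 10% and between 1432 and 6494 CPM, and knockout cells above 10% have a median of 813 CPM.

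Of 35 S phase genes 29 were lower in knockout (median log2 -0.31), 5 of them at least 2-fold. Cdt1, which licenses replication origins, was at 50.7 and 13.1 CPM (0.259, 0.128 to 0.551) and Prim1, the primase, at 58.5 and 22.6 CPM (0.386, 0.210 to 0.748), while Dut, which clears dUTP, was at 250 and 168 CPM (0.673, 0.513 to 0.895). The shift was not limited to dividing cells: in other acinar cells 23 of 31 S phase genes were lower (median -0.33 against 0.16 for all genes). In mesenchymal cells 13 of 39 were lower (median 0.08 against 0.01). In the knockout proliferating cells under 10% the S phase median was -0.11 with 22 of 33 lower. The G2 and M list had 39 of 57 genes higher and a median of 0.14, and its sum was lower with (0.902, 0.855 to 0.952) and higher without (1.19, 1.12 to 1.27) the control cell with most cycle UMIs. Its median turned to -0.12 when each cell had equal weight and to -0.35 when the enzyme limit was 1%. Hmgb2 was at 0.793 times the control (0.696 to 0.906) and Tuba1b at 0.747 times (0.630 to 0.891), and without that cell at 0.986 and 0.907 times. Of 10 measured G1 genes 7 were lower (median -0.29), with Cdk4, the partner of cyclin D, at 308 and 179 CPM (0.579, 0.452 to 0.750).

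Among cell cycle inhibitors and p53 targets, Btg2, an antiproliferative gene that is also an early response gene, stood at 242 and 568 CPM (2.35, 1.82 to 3.08). Mesenchymal cells held Btg2 at 533 and 609 CPM. Plk2, a kinase induced by stress, stood at 85.8 and 209 CPM (2.44, 1.59 to 3.93), and Cdkn1a, the inhibitor p21, at 101.4 and 164 CPM (1.62, 1.09 to 2.52). Cdkn1c, the inhibitor p57, stood at 152 and 119 CPM (0.783, 0.556 to 1.13), and at 1.15 times (0.750 to 1.86) without the control cell with most cycle UMIs. Of 11 measured p53 response genes 9 were higher, with a median of 0.66, and the list summed to 734 and 1370 CPM (1.87, 1.61 to 2.18); under 10% the ratio of sums was 1.65 (1.41 to 1.93) and in other acinar cells 1.58 (1.46 to 1.71). By cell, 105 of 121 knockout cells exceeded the control median of 743 CPM. In mesenchymal cells the list stood at 946 and 1004 CPM (1.06, 1.01 to 1.11). Btg2 is counted in this list and also in the inhibitor and immediate early lists. It gave 242 of the 734 CPM in control and 568 of the 1370 CPM in knockout proliferating cells. Of the mesenchymal sums it gave 533 and 609 CPM. The list was not summed without Btg2.

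Immediate early and heat shock genes, which respond fast to stimuli and stress, had 18 of 22 higher and a median of 0.52. Jun, a unit of the AP-1 factor, stood at 386 and 602 CPM (1.56, 1.27 to 1.93) and its partner Fos at 714 and 777 CPM (1.09, 0.933 to 1.28). Nr4a1 was at 3 and 167 UMIs (7.49, 2.52 to 36.7), or 19.9 times (3.52 to 791) without the control cell that held 2 of the 3. It stood at 11.7 and 87.7 CPM here and at 257 and 312 CPM in mesenchymal cells. The part of mesenchymal RNA in its ratio was not tested. In mesenchymal cells the list's ratio of sums was 1.11 (1.09 to 1.12) against 1.25 (1.18 to 1.34) here. Among progenitor genes, Hes1, a target of Notch signalling, stood at 390 and 667 CPM (1.71, 1.39 to 2.12), in 11 of 19 and 115 of 121 cells; 45 of its 100 control UMIs came from 1 cell, without which the ratio was 2.75 (2.10 to 3.67). It stood at 370 and 276 CPM in mesenchymal cells. All 6 measured Notch genes were higher (median 0.64), with Notch1 at 1.32 times (0.688 to 2.84). Myc was at 2 and 76 UMIs (5.12, 1.37 to 43.0, and 8.88, 1.55 to 355, without the control cell with most cycle UMIs), and Bicc1, an RNA-binding protein of tubules, at 0.476 times (0.310 to 0.752), or 0.867 times (0.493 to 1.64) without the control cell that held 14 of its 28 UMIs.

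In the chromatin lists more genes were lower than higher in knockout, but single genes lay both ways. Over 15 alternatives the medians ran from -0.35 to 0.25 for COMPASS and TrxG genes and from -0.38 to 0.07 for Polycomb genes. Of 16 measured COMPASS and TrxG genes 10 were lower (median -0.25), and the median was 0.01 without the control cell with most cycle UMIs and 0.12 with equal weight per cell. Dpy30 was at 1.52 times the control (1.09 to 2.17), and Kmt2a, a catalytic subunit, at 0.754 times (0.381 to 1.66), or 1.11 times (0.480 to 3.16) without the control cell with most of its UMIs. Of 15 Polycomb genes 10 were lower (median -0.32), and Ezh2 stood at 78.0 and 57.8 CPM (0.740, 0.457 to 1.26). Ribosome biogenesis genes had 17 of 26 lower (median -0.20) and a sum of 4877 and 4260 CPM (0.874, 0.823 to 0.928), and under 10% the ratio was 0.961 (0.904 to 1.02). Glycolysis genes had 9 of 13 lower (median -0.33), with Tpi1, triosephosphate isomerase, at 456 and 245 CPM (0.537, 0.438 to 0.664) and Ldha at 753 and 735 CPM (0.976, 0.839 to 1.14, and 1.03 without the control cell with most cycle UMIs). H19, an imprinted RNA of fetal growth, stood at 585 and 1266 CPM (2.16, 1.83 to 2.57), and at 1.24 times the control in the knockout cells under 10% (1.04 to 1.48). Mesenchymal cells held H19 at 5252 and 4804 CPM, and the part of their RNA in this ratio was not tested.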

How the data were processed

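The authors deposited counts: matrices of whole UMI numbers, 1 matrix for each 10x 3' v2 library, made with Cell Ranger (software version 3.0.0 per the file headers). The builds GRCm38 and mm10 and Seurat 2 and 3 are named in the submitters' processing notes. The authors' deposited table of cluster genes maps no barcodes and was not used. Each library was loaded for a target of 10000 cells after 20 min of digestion, per the labels' protocols.

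Cells were chosen by the rule given above, with no doublet removal (Scrublet, in scanpy 1.11.5, called 26 of 2633 and 29 of 3257 barcodes, 1 and 4 of them proliferating acinar cells). Mesenchymal cells had at least 1% of UMIs from collagen genes, and cells under the enzyme limit with at least 3 Spp1 UMIs, at least 5 UMIs of epithelial genes and at least 3 cycle UMIs are the dividing ductal cells. UMIs were summed per library and cell set and divided by the set's total (CPM). Ratios have exact conditional binomial intervals, sums exact Poisson, shares Clopper-Pearson and ratios of shares Katz intervals, all 95%. A gene at 0 UMIs was set to a floor of 3 counts for its fold. Genes were named by rank: in each comparison the top 12 and the bottom 12 by ratio, taken at that end of the interval which lies closer to 1 (haemoglobin, mitochondrial, ribosomal protein, sex-linked and unnamed genes left out, and genes over 5 times higher in cells under the enzyme limit), plus, from every list, the 4 most counted genes and 2 at each extreme of the ratio, the rule's genes, the markers and the 7 genes of the mixture; Hmgcs1 was picked for its promoter after its values were seen. A gene that the rule names is not reported here. Of 519 list entries in 24 lists 4 are not in the files. The cells and the lists were chosen with earlier results of these data known. The ratio calculation was tested on simulated counts. Promoters and their matches were taken by gene symbol. Scripts ran in Python 3.11.15 with pandas 2.3.3, SciPy 1.17.1, NumPy 2.4.6 and, for plots, matplotlib 3.10.9.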

Additional observations from a re-analysis of the deposited data

Results flagged for a closer look

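Only genes open to naming by the rules above were searched, if they had at least 100 UMIs over both cell sets in each library. For 8 of them, the ratio of proliferating to other acinar cells lay above 1 in one library and below 1 in the other. Both intervals left out 1. Other genes were not searched, and the difference between libraries was not tested. Reg1 was at 1.33 times the other cells in control and 0.412 times in knockout, and Clu, a secreted chaperone, at 1.25 and 0.662 times. Of their control UMIs 74 of 179 and 101 of 301 came from 1 cell, and without that cell the control ratios were 0.845 (0.675 to 1.05) and 0.941 (0.801 to 1.10), no longer with an interval above 1. With the other acinar cell that had most of each gene left out too they were 0.998 (0.794 to 1.24) and 1.01 (0.861 to 1.19). Cpa1 was at 0.595 and 1.03 times, the ribonuclease Rnase1 at 0.792 and 1.06 times, and Sec61g, a unit of the ER channel, at 0.874 and 1.04 times. Within a mixture under 10% the knockout ratios of these 3 were 0.773, 0.723 and 0.972, below 1 as in control, but the interval of Sec61g (0.925 to 1.02) held 1. Without the proliferating cell with most UMIs of the gene, Cpa1 was at 1.00 in knockout (0.976 to 1.03) and Sec61g at 0.924 in control (0.833 to 1.02). Those intervals held 1, while the knockout interval of Rnase1 (1.01 to 1.08) did not. The haemoglobin genes Hba-a1, Hba-a2 and Hbb-bs were at 0.481 and 1.23, at 0.506 and 1.13, and at 0.612 and 1.05 times. Without the proliferating cell with most UMIs of each gene the knockout ratios were 0.664, 0.619 and 0.683, and with such a cell left out of both sets 0.795, 0.714 and 0.794. Within a mixture under 10%, that proliferating cell included, they were 2.85, 2.27 and 1.73.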

How the results depend on the processing

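The knockout to control ratio of the proliferating share stayed between 0.695 and 1.21 over 12 alternatives, and the share of knockout proliferating cells with a mixture over 50% between 5.97% and 10.8% over 10. The knockout share itself was 18.1% with at least 1000 detected genes, 11.2% with enzymes at 5% of UMIs, 19.6% and 10.6% with 2 and 5 cycle UMIs, 21.7% under a mixture of 10% and 7.46% after thinning, when the control share was 6.25%. Genes at least 2-fold higher and lower in knockout numbered 50 and 9 with enzymes at 5%, 955 and 380 at 20 UMIs and 29 and 4 at 300 UMIs. They numbered 71 and 11 without cells holding mesenchymal, endothelial or macrophage markers. Higher genes numbered 23 under a mixture of 10% and 63 by mean CPM, and lower genes 38 with enzymes at 1% and 14 without called doublets. Between proliferating and other acinar cells, 141 and 19 genes passed at 20 UMIs, 6 were higher at 300 UMIs, and lower genes numbered 20 after centring and 21 under a mixture of 10%. The sterol median was -0.72 with enzymes at 5%, -0.70 without cells above the 99th percentile of UMIs and -0.75 without the control cell with most cycle UMIs, the lowest of its 15 alternatives being -1.08. G2 and M over S UMIs was 2.41 in control without that cell and 4.06 in knockout after thinning. Under a mixture of 10%, Reg1 was at 0.438 and Prss3 at 0.482, both in the opposite direction; among ratios of at least 2-fold these 2 alone crossed 1 under scaling, mixture or top cycle cell alternatives, and 6 more genes with ratios closer to 1, such as Cel and Tubb4b, crossed it too. Of these gene values, 161 moved within their interval and 52 beyond it. Without the control cell with most UMIs of the gene, Dmbt1 was at 1.02, Hsph1 at 1.12 and Pcgf2 at 1.00, also across 1, and over all named genes without single cells, 546 values stayed within their interval and 81 more moved beyond it. The cause of each shift was not tested. Leaving out cells with red cell markers left 1 and 1 cells, so it gave no value. The alternatives on a mixture under 10%, on mean CPM, on deeper cells, on markers without red cell genes and on single cells were chosen after seeing the data. No paired analysis was possible because each group is 1 library. With 19 control cells and 256303 control UMIs, ratios of genes at 1 to 3 control UMIs are the least precise.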

Other observations

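The remaining lists described other sides of the proliferating acinar cells, as counts of genes higher or lower in knockout beside a median log2 ratio of 0.07 for all genes. High mobility group proteins and chromatin chaperones, which loosen or assemble chromatin, had 13 of 16 lower (median -0.26) and -0.08 in the knockout cells under a mixture of 10%. Genes of Hippo and WNT signalling, a list that mixes targets with the pathways' own factors, had 9 of 11 lower (median -0.39). Tip and multipotent progenitor genes had 7 of 10 higher (median 0.39). Imprinted growth genes had 7 of 11 higher (median 0.25), and under 10% the median was -0.22 with 5 of 10 higher. Histone genes had 9 of 15 lower (median -0.13), and cytokeratin and adhesion genes 8 of 15 lower (median -0.03). The unfolded protein response, which expands the secretory pathway, had 14 of 22 higher, and under 10% 17 of 20 with a median of 0.20. None of these differences was tested.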
